A study of Mus musculus with 32 samples.

Results

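The genes described here are 10 genes of the circadian clock, Arntl, Per1, Per2, Per3, Cry1, Ciart, Nr1d1, Nr1d2, Dbp and Tef, in mouse spinal cord. They were chosen by name as core clock genes, with no threshold on a measured value, and all 10 were found by gene symbol among the 42524 genes of the count table. Every one of the 10 passed the filter on low counts at both ages.

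The circadian clock is a transcriptional loop of about a day that runs in most mammalian cells. Arntl (also called Bmal1) pairs with Clock to activate genes that carry E-boxes, among them the Per and Cry genes, whose proteins then repress that activation. Nr1d1 and Nr1d2 (Rev-erb alpha and beta) are repressors that act on Arntl through ROR elements, Ciart is a further repressor of the Arntl and Clock pair, and Dbp and Tef are output factors that bind D-boxes. In a tissue sampled over the day, Arntl transcripts peak roughly opposite to those of Dbp, Nr1d1, Ciart and the Per genes, so their levels depend on the hour of collection, and Per1 is in addition induced directly by glucocorticoids.

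RNA from the spinal cord was sequenced for 32 mice, 4 in each of 8 groups that combined genotype, treatment and time. The genotypes were WT and G93A, the second carrying a human SOD1 transgene with the G93A mutation that causes familial amyotrophic lateral sclerosis (ALS), on a C57BL/6J background with WT littermates as controls. Mice of each genotype were untreated or received OKN-007, a nitrone compound that the study tested as a treatment for ALS, and were grouped by a time label of 90 or 155 days, of which the study's methods give the first as an age of 95 days. The label names are kept here. The methods tie no dose to the sequenced mice, but the cohorts they describe as ending at these times were those of the higher dose, given in drinking water. The hour at which tissue was taken is not given in the sources used here, and the methods state a regular light-dark cycle and mostly female mice. The human transgene has no row in a mouse table, so expression of the transgene could not be used to check the genotype labels.

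The gene counts of a mouse summed to between 19701722 and 30138257, and levels are given as CPM, counts scaled to a common library total, after TMM adjustment, with factors between 0.959 and 1.055. In the shallowest library 3 counts corresponded to 0.152 CPM, far below the lowest level of any clock gene in any mouse, 5.70 CPM for Ciart. Libraries of a group differed in a score of 6 Hox genes that mark the caudal cord (Hoxa10, Hoxc10, Hoxd10, Hoxa11, Hoxc11 and Hoxd11; mean log2 CPM), which ran from -1.99 to 4.05 over the 32 mice and differed between genotypes at 155 days, with group means of 3.11 and 3.94 in WT untreated and WT OKN-007 mice and 0.296 and 1.51 in G93A untreated and G93A OKN-007 mice. At 90 days the means were 2.24 and 2.43 in WT and G93A untreated mice and 0.714 and 0.505 in WT and G93A OKN-007 mice, with overlapping ranges. In WT OKN-007 mice the score ran from -1.1 to 2.12 at 90 days and from 3.71 to 4.05 at 155 days. The Hox score thus moved with genotype at 155 days, and its means also differed between treatments at 90 days and between the times. Results that changed with it as a covariate are given both ways. In whole tissue, fewer cells of a type and less RNA per cell cannot be told apart.

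Stretches of promoter are printed first because they hold the elements through which these genes are known to be read by the clock. They come from RefSeq (GRCm38.p6), in windows from 250 bases before to 50 after each annotated start, and 9 of the 10 genes matched a window, with Per2 not among them. The letters searched, on both strands, were CACGTG (E-box), TTATGTAA or TTATGCAA (D-box), TAGGTCA or TGGGTCA (ROR element) and TGACGT (the core of a cyclic AMP response element, CRE). Over all 32851 windows, 7.15% held the E-box letters, 1.66% the D-box letters, 6.45% the ROR letters and 7.51% the CRE letters. Capitals mark the letters found, and each sequence reads 5′ to 3′ on the strand of its gene.
Ciart, minus strand of chr3:95882252-95882359, with E-boxes: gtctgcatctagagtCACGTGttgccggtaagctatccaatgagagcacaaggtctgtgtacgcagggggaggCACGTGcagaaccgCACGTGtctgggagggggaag
Per1, plus strand of chr11:69098768-69098947, with an E-box and a D-box: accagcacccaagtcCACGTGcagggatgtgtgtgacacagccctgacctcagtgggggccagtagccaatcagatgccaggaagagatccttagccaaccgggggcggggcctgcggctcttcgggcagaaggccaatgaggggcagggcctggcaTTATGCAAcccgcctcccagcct
Per1, plus strand of chr11:69100005-69100040, before a further start, with the CRE letters: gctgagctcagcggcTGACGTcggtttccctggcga
Per3, minus strand of chr4:151044801-151044885, with D-boxes: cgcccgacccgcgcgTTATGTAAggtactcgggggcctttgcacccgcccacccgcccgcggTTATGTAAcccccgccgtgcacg
Cry1, minus strand of chr10:85185094-85185129, with an E-box: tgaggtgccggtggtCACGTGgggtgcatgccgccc
Tef, plus strand of chr15:81811261-81811296, before a further start, with an E-box: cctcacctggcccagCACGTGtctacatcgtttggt
Arntl, plus strand of chr7:113207530-113207559, in the first bases after its start, with a ROR element: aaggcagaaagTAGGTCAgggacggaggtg

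Ciart carried 3 E-boxes and Per3 carried 2 D-boxes, and Per1 was the gene with matches to 3 of the 4 elements across its starts. The windows of Dbp, Nr1d1 and Nr1d2 held none of these letters, which says only that the letters are not in those windows. Positions of the genes are those of GENCODE M21 (GRCm38). Per1 (ENSMUSG00000020893, chr11:69095217-69109960, plus strand) and Nr1d1 (ENSMUSG00000020889, chr11:98767932-98775333, minus strand) share chromosome 11, and Dbp (ENSMUSG00000059824, chr7:45705088-45710203, plus strand) and Arntl (ENSMUSG00000055116, chr7:113207465-113314126, plus strand) share chromosome 7. The others are Per2 (ENSMUSG00000055866, chr1:91415982-91459324, minus strand), Per3 (ENSMUSG00000028957, chr4:151003652-151044665, minus strand), Cry1 (ENSMUSG00000020038, chr10:85131700-85185064, minus strand), Ciart (ENSMUSG00000038550, chr3:95878503-95882251, minus strand), Nr1d2 (ENSMUSG00000021775, chr14:18204054-18239127, minus strand) and Tef (ENSMUSG00000022389, chr15:81802421-81826863, plus strand). Exons of Dbp share 539 bases with Sphk2 on the opposite strand, those of Nr1d1 share 263 with Thra, those of Tef share 193 with Gm17597 and those of Arntl share 33 with Gm45355. The strand setting of the counting is not given in the sources used here, so reads over those bases may belong to either gene. Within groups, Dbp deviated with Sphk2 at r = -0.081 and Nr1d1 with Thra at r = 0.26 over the 32 mice.

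Per kilobase of exon, the repressor Nr1d2 had the highest mean level over the 32 mice (27.7 CPM per kb), followed by the output factors Tef (20.7 CPM per kb) and Dbp (18.7 CPM per kb). Nr1d1 stood at 13.1 CPM per kb, Cry1 at 6.65 and Per1 at 6.46. Ciart (3.74 CPM per kb), Per3 (2.87), Per2 (2.63) and Arntl (2.58) were lowest, and the last 3, Arntl being the activator of the loop, lay close together on this scale, as did Cry1 and Per1.

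**Figure D1:**
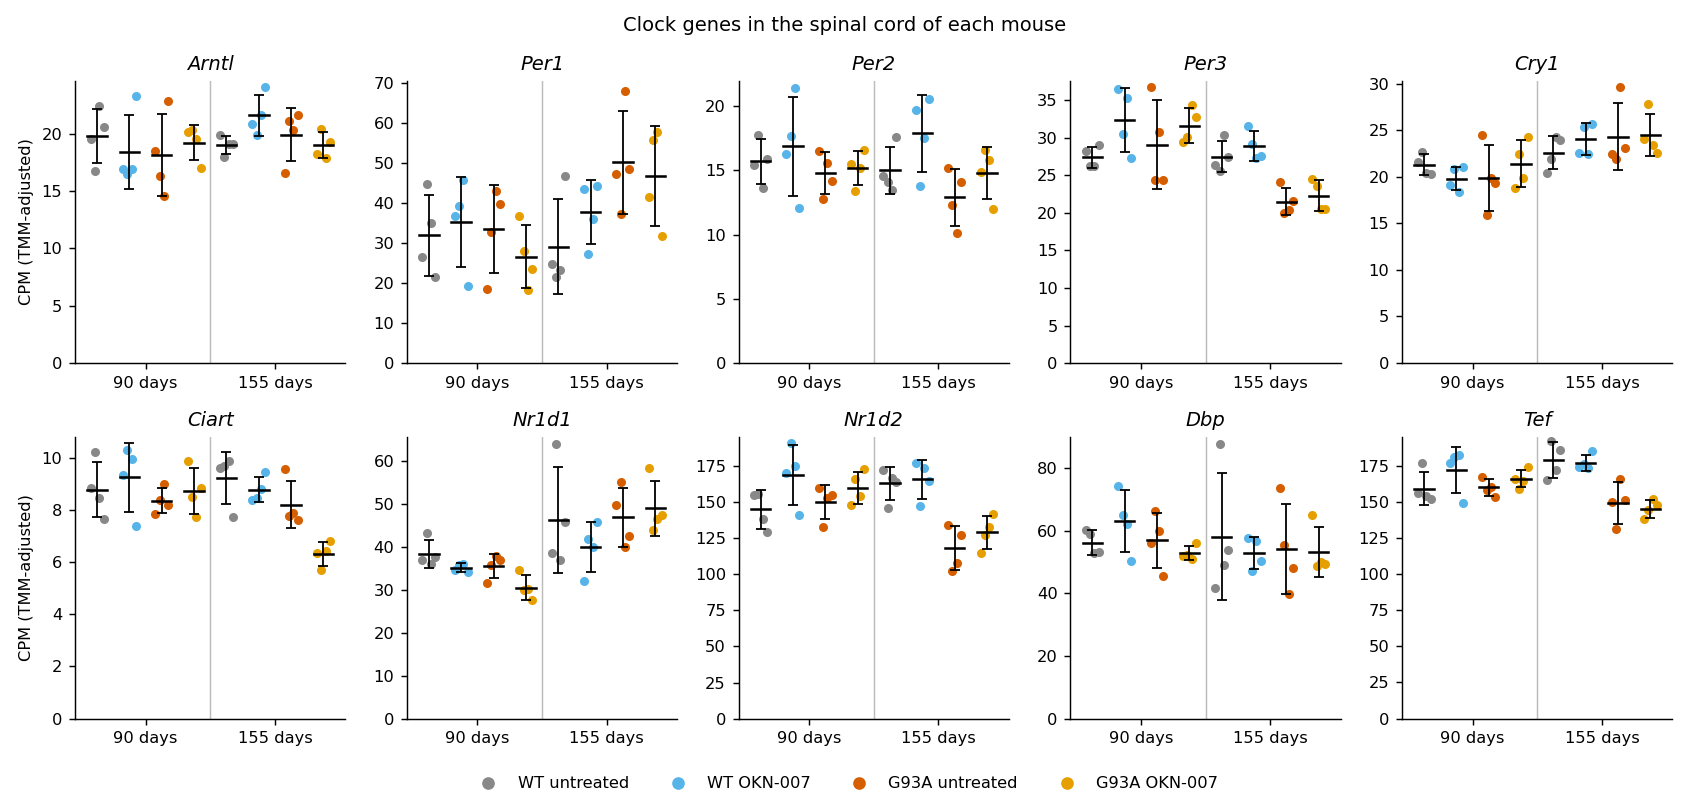
Level of each clock gene in each mouse, in CPM (TMM-adjusted) on a linear axis from 0, with 4 mice per group (points), the group mean (bar) and the SD (error bar). The means of Nr1d2, Per3 and Tef sit lower in both G93A groups than in both WT groups at 155 days, while Per1 ranges from 18.3 to 67.9 CPM with wide spread inside every group.

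At 90 days no clock gene passed between the genotypes. In untreated mice 0 of the 10 passed an adjusted p of 0.05 between G93A and WT, against 0% of the 18899 genes tested, and the smallest adjusted p was 0.876 for Nr1d1 (edgeR quasi-likelihood test, Benjamini-Hochberg adjustment over all genes). At an unadjusted p under 0.05 the count was 0 as well, and DESeq2 and edgeR's likelihood ratio test each called 0. The 95% intervals of the log2 fold changes ran from -0.505 to 0.649 over the 10 genes, and both of these ends belonged to Per1.

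Under OKN-007 at 90 days, again 0 of 10 passed between G93A and WT, against 0% of all genes. Dbp (log2 fold change -0.25, unadjusted p = 0.041) and Nr1d1 (-0.20, unadjusted p = 0.021) were the 2 below an unadjusted p of 0.05, both with an edgeR adjusted p of 1. Averaged over the treatments the count stayed at 0 of 10, against 0.0265% of all genes, with Nr1d1 lowest in adjusted p (log2 fold change -0.16, unadjusted p = 0.0118, edgeR adjusted p = 0.572). DESeq2 and the likelihood ratio test also called 0 in both comparisons.

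At 155 days clock genes differed between the genotypes in both directions. In untreated mice Nr1d2, Per3 and Tef were lower and Per1 was higher in G93A than in WT mice, which is 4 of 10 genes, against 39.5% of the 18675 genes tested (21.3% higher and 18.2% lower). A share of 4 in 10 is near that background. The median log2 fold change of the 10 was -0.12, and that of all genes was 0.00015. Arntl, Cry1, Ciart, Per2, Dbp and Nr1d1 did not pass.

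Nr1d2, the more abundant of the Rev-erb repressors, measured 172, 146, 167 and 164 CPM in WT untreated mice at 155 days and 134, 102, 108 and 127 CPM in G93A untreated mice. The highest G93A mouse lay below the lowest WT mouse. The means were 163 ± 11.2 and 118 ± 15.2 CPM (SD, n = 4), and the fitted log2 difference was -0.45 ± 0.092 (SE; 26.9% lower, edgeR adjusted p = 0.000676).

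Per3, a member of the Period repressor family, measured 26.4, 25.6, 30.4 and 27.5 CPM in WT untreated mice and 24.1, 20, 20.4 and 21.6 CPM in G93A untreated mice. These groups did not overlap either, and the log2 fold change was -0.34 ± 0.088 (SE; 20.9% lower, edgeR adjusted p = 0.00494). Non-overlap of the untreated groups was seen for 32.7% of all genes tested and for 2 of the 10 clock genes. Nr1d2 and Per3 also passed with the Hox score as a covariate (edgeR adjusted p = 0.012 and 0.01).

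Tef, which binds D-boxes as an activator, measured 165, 192, 172 and 186 CPM in WT untreated mice and 150, 131, 166 and 151 CPM in G93A untreated mice. One G93A mouse lay inside the WT range. The log2 fold change of -0.24 ± 0.073 (SE; edgeR adjusted p = 0.0122) fell to -0.14 with the Hox score as a covariate and no longer passed (edgeR adjusted p = 0.241). Nor did it pass without G93A untreated replicate 10 (-0.17, edgeR adjusted p = 0.0745) or in a fit of only the compared groups (-0.248, adjusted p = 0.0637).

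Per1, the Period gene that also responds to glucocorticoids, was the single clock gene that was higher. It measured 24.8, 21.6, 23.3 and 46.8 CPM in WT untreated mice and 47.1, 37.1, 67.9 and 48.4 CPM in G93A untreated mice. WT replicate 4 stood with the G93A mice, so the groups overlapped, and 3 of 4 G93A mice were above every WT mouse. The means were 29.1 ± 11.8 and 50.1 ± 12.9 CPM (SD, n = 4), which the fit gave as a log2 difference of 0.80 ± 0.24 (SE; 1.73-fold, 95% interval 0.29 to 1.30, edgeR adjusted p = 0.0127). Without G93A replicate 11 it was 0.615 and did not pass (edgeR adjusted p = 0.0557), and with 1 surrogate variable in the fit it was 0.352 (edgeR adjusted p = 0.127). Without WT replicate 4 it was 1.14 (edgeR adjusted p = 0.000484).

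The 6 genes that did not pass in untreated mice at 155 days had log2 fold changes between -0.20 and 0.12. Per2, which represses the loop with Per1, stood at -0.20 (95% interval -0.49 to 0.10), and Ciart at -0.15 (-0.38 to 0.07). Cry1, the Cryptochrome repressor, stood at 0.12 (-0.10 to 0.33) and Arntl at 0.077 (-0.11 to 0.26). Dbp at -0.084 (-0.49 to 0.32) and Nr1d1 at 0.033 (-0.29 to 0.35) had the widest intervals of the 6.

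The same comparison among OKN-007 mice at 155 days gave 4 lower clock genes and 0 higher, against 41.5% of all genes (23.3% higher and 18.2% lower). Per3 was at 31.6, 29.2, 27.3 and 27.6 CPM in WT OKN-007 mice and at 24.5, 23.6, 20.5 and 20.5 CPM in G93A OKN-007 mice (log2 fold change -0.34, edgeR adjusted p = 0.00429). Nr1d2 was at 177, 147, 174 and 165 CPM and at 115, 127, 133 and 142 CPM (-0.32, edgeR adjusted p = 0.00775). Tef was at 174, 176, 173 and 185 CPM and at 138, 144, 152 and 148 CPM (-0.25, edgeR adjusted p = 0.0102). Each of these 3 genes was lower in every G93A mouse than in every WT mouse, although Tef no longer passed with the Hox score as a covariate (-0.15, edgeR adjusted p = 0.153).

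Ciart was the fourth, at 8.38, 8.45, 8.81 and 9.43 CPM in WT OKN-007 mice and 6.34, 5.70, 6.41 and 6.80 CPM in G93A OKN-007 mice. The means were 8.77 ± 0.481 and 6.31 ± 0.456 CPM (SD, n = 4), which the fit gave as a log2 difference of -0.44 ± 0.11 (SE; 26.2% lower, edgeR adjusted p = 0.00301), and the groups did not overlap. Non-overlap was seen for these 4 of the 10 clock genes and for 44.4% of all genes tested. Per1 did not pass here (0.348, 95% interval -0.15 to 0.85, edgeR adjusted p = 0.258), and Nr1d1 fell short as well (0.331, 95% interval 0.01 to 0.65, edgeR adjusted p = 0.0916). Nr1d1 passed in a fit of only the compared groups (edgeR adjusted p = 0.0253), without the filter on low counts (0.0274) and without WT untreated replicate 2 (0.0418).

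Averaged over the treatments at 155 days, 5 of 10 passed, against 54.7% of all genes (28.8% higher and 25.8% lower). Nr1d2 (-0.39, edgeR adjusted p = 4.86e-05), Per3 (-0.34, adjusted p = 0.000138), Tef (-0.25, adjusted p = 0.000502) and Ciart (-0.30, adjusted p = 0.00285) were lower, and Per1 was higher (0.57, adjusted p = 0.00753). With the Hox score Tef was at -0.145 and did not pass (edgeR adjusted p = 0.0934). Per2 was just outside (-0.21, unadjusted p = 0.0447, edgeR adjusted p = 0.0766), and it passed with DESeq2 (-0.23, adjusted p = 0.0441), without G93A untreated replicate 9 (-0.255, edgeR adjusted p = 0.0422) and without WT OKN-007 replicate 6 (-0.265, edgeR adjusted p = 0.027). With 1 surrogate variable in the fit Per1 was at 0.221 and did not pass (edgeR adjusted p = 0.151). Nr1d1 stood at 0.18 (95% interval -0.04 to 0.41) beside its lower relative Nr1d2, and passed without WT untreated replicate 2 (0.28, edgeR adjusted p = 0.014). Among the Period genes Per1 was thus higher, Per3 lower and Per2 not called.

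**Figure D2:**
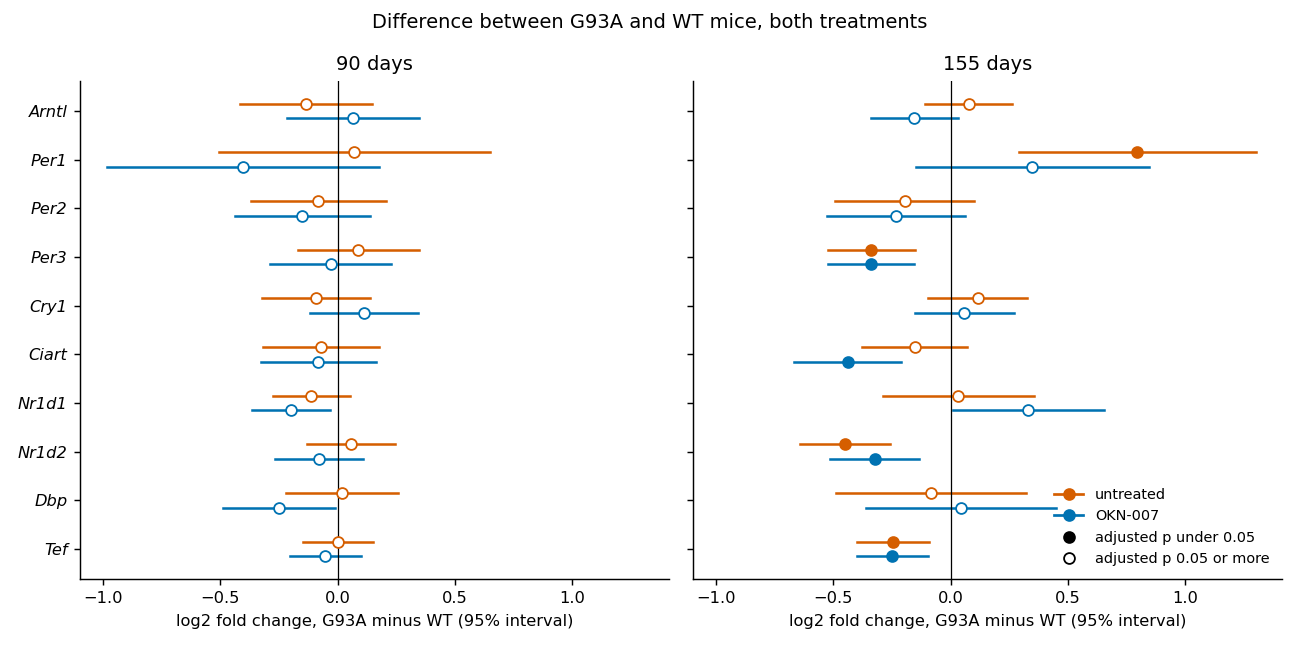
Log2 fold change of G93A over WT mice for each clock gene at 90 days (left) and 155 days (right), with 95% intervals from edgeR, in untreated (orange) and OKN-007 (blue) mice; filled points have an adjusted p under 0.05. At 155 days Per3, Nr1d2 and Tef are filled on the lower side under both treatments, Per1 on the higher side in untreated mice and Ciart on the lower side in OKN-007 mice, and no point is filled at 90 days.

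Markers of several cell types moved with genotype at 155 days, and their values stand beside these differences. Of 8 microglial markers, 8 were higher in G93A mice under either treatment, with a summed level of 318 to 391 CPM in WT untreated and 1370 to 2430 CPM in G93A untreated mice. Of 8 astrocyte markers 6 were higher in untreated mice (summed level 6430 to 7210 and 15500 to 19100 CPM). All 8 neuronal markers were lower (10500 to 13400 and 5090 to 7530 CPM), as were 7 of 8 motor neuron markers (271 to 327 and 157 to 183 CPM). Of 8 oligodendrocyte markers 2 were higher in untreated mice, and of 4 Schwann cell markers 2 were higher. Under OKN-007 the oligodendrocyte marker Opalin was higher as well (0.631, edgeR adjusted p = 0.00945). Averaged over the treatments the oligodendrocyte marker Mog was lower (-0.196, edgeR adjusted p = 0.0146). Of 5 endothelial markers 0 passed in untreated mice by edgeR, although 2 had an unadjusted p under 0.05, while under OKN-007 Pecam1 was lower (-0.302, edgeR adjusted p = 0.0404), and averaged over the treatments Pecam1 was lower (-0.28, adjusted p = 0.00653) and Flt1 higher (0.216, adjusted p = 0.00796). Of the 4 muscle markers 2 were abundant enough to test and 0 passed (0 at an unadjusted p under 0.05), and of the 4 liver markers 3 were tested and 0 passed in untreated mice (0 unadjusted), with 1 higher under OKN-007. Liver genes were high in single libraries, with a summed level up to 171 CPM in G93A untreated mice, and the genotype calls of Per1, Per3, Nr1d2, Tef and Ciart at 155 days held without the 3 libraries highest in the liver gene Alb. No marker gene was at 0 in every mouse of a group. Within groups over the 32 mice, Nr1d2 deviated with the microglial mean at r = -0.562 and with the motor neuron mean at r = 0.55. Per3 stood at -0.0328 and -0.293 with the same means, and Tef at -0.163 and 0.0758. These are descriptions with no test. The part of these cell types in the lower Nr1d2, Per3 and Tef was not tested.

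Other clock genes moved in both directions at 155 days. A wider list of 22 clock genes, of which all 22 were tested, gave 9 higher and 5 lower in untreated G93A mice and 10 higher and 5 lower under OKN-007, against 39.5% and 41.5% of all genes in either direction, with median log2 fold changes of 0.1 and 0.11. The other 8 and 7 did not pass. At 90 days 0 of 22 passed in untreated mice by edgeR, and 0 had an unadjusted p under 0.05. Among the repressors, Nfil3, which competes with Dbp and Tef at D-boxes, rose from 6.91 ± 0.631 to 13.1 ± 3.04 CPM in untreated mice (log2 fold change 0.93, edgeR adjusted p = 3.22e-05). Bhlhe40 (0.53, edgeR adjusted p = 0.000338) and Bhlhe41 (0.51, adjusted p = 6.43e-06), which compete with Arntl and Clock at E-boxes, rose as well.

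Of the other D-box factors, Hlf, a relative of Dbp and Tef, fell from 42.5 ± 2.50 to 29.1 ± 3.70 CPM in untreated mice (-0.53, edgeR adjusted p = 6.59e-05). Among activators, Npas2, which can take the place of Clock, rose (0.44, edgeR adjusted p = 0.0445), while Clock itself did not pass (-0.03, adjusted p = 0.856). The ROR activator Rorb rose (0.58, edgeR adjusted p = 0.000374), and Rora did not pass (0.00, adjusted p = 0.999). Timeless (0.80, edgeR adjusted p = 1.94e-05), Nono (0.17, adjusted p = 0.0386) and the ubiquitin protease Usp2 (0.67, adjusted p = 0.00232) rose too.

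The other 4 that fell in untreated mice were the ubiquitin ligase genes Fbxl21 (-0.63, edgeR adjusted p = 0.00288), Btrc (-0.29, adjusted p = 0.0109) and Fbxw11 (-0.29, adjusted p = 0.0262), and Wee1, a cell cycle kinase under E-box control (-0.70, adjusted p = 0.00198). Under OKN-007 Cry2, a Cryptochrome repressor, was lower (-0.23, edgeR adjusted p = 0.0153), while Fbxl21 did not pass (-0.36, adjusted p = 0.0661). Csnk1d and Csnk1e, the kinases that phosphorylate Period proteins, stood between -0.03 and 0.03 under both treatments. As background, Nfil3, Bhlhe40, Bhlhe41 and Timeless are also known to act in immune cells or in dividing cells. The part of microglia, whose markers were higher in the same mice, in these changes was not tested.

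OKN-007 was compared with no treatment within each genotype and time, and 0 of the 10 clock genes passed in any of the 4 comparisons (edgeR), against 0% of all genes in each. DESeq2 and the likelihood ratio test also gave 0. In WT mice at 90 days Nr1d2 (0.225, unadjusted p = 0.0215, edgeR adjusted p = 0.993) was the 1 gene under an unadjusted p of 0.05, in G93A mice at 90 days it was Nr1d1 (-0.22, unadjusted p = 0.0125, adjusted p = 0.837), and in WT mice at 155 days there were 0. In G93A mice at 155 days it was Ciart, which measured 9.57, 7.78, 7.87 and 7.60 CPM untreated and 6.34, 5.70, 6.41 and 6.80 CPM with OKN-007.

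All 4 treated G93A mice were thus below all 4 untreated ones for Ciart, a non-overlap seen for 3.08% of all genes. Its log2 fold change was -0.37 ± 0.11 (SE; 95% interval -0.60 to -0.14, unadjusted p = 0.00312), and the edgeR adjusted p over all genes was 1. In WT mice at 155 days the corresponding value was -0.083 (95% interval -0.31 to 0.14). The difference between these treatment effects was -0.286 (95% interval -0.61 to 0.03, unadjusted p = 0.0758, edgeR adjusted p = 1).

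No clock gene passed the test of the genotype by treatment interaction at either time (0% of all genes by edgeR at both, and 0 of 10 at an unadjusted p under 0.05 and by the other tests). At 155 days the interaction of Per1 was -0.447 (95% interval -1.15 to 0.26), so the 0.80 of untreated mice and the 0.348 of OKN-007 mice were not shown to differ. That of Arntl was -0.23 (edgeR, unadjusted p = 0.0809), with 19.0 ± 0.772 and 21.6 ± 1.77 CPM in WT untreated and WT OKN-007 mice and 19.9 ± 2.29 and 19.0 ± 1.12 CPM in the matching G93A groups. The intervals for single treatment effects at 155 days reached from -0.597 to 0.857 over the 10 genes and both genotypes.

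Between the time labels, 0 and 1 clock genes passed in the WT groups and 4 and 6 in the G93A groups. These counts do not test a difference between the genotypes, which was tested for untreated mice and is given below. WT untreated mice gave 0 of 10 by edgeR, against 24.9% of the 19829 genes tested in the fit of all 32 mice. Tef (0.17, unadjusted p = 0.0279, adjusted p = 0.0886) and Nr1d1 (0.27, unadjusted p = 0.0471, adjusted p = 0.129) were the 2 below an unadjusted p of 0.05, and DESeq2 and the likelihood ratio test called 0. Without WT untreated replicate 2 of 90 days Tef passed (0.22, edgeR adjusted p = 0.0259). In WT OKN-007 mice 1 of 10 passed, against 31.3% of all genes (17.8% higher and 13.5% lower): Cry1 rose by 0.28 (edgeR adjusted p = 0.0454). This call lay at the edge: it was lost with DESeq2 (0.248, adjusted p = 0.0696) and in 20 of the fits that left out 1 of the 32 mice, in which the change was 0.229 to 0.305. Without WT OKN-007 replicate 8 of 90 days Arntl passed here as well (0.365, edgeR adjusted p = 0.0166).

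In G93A untreated mice 4 of 10 passed, against 33.7% of all genes (21% higher and 12.8% lower). Per3 fell from 29.1 ± 5.93 to 21.5 ± 1.83 CPM (log2 change -0.44, edgeR adjusted p = 0.00193) and Nr1d2 from 150 ± 11.7 to 118 ± 15.2 CPM (-0.35, adjusted p = 0.00423). Nr1d1 rose from 35.5 ± 2.79 to 46.9 ± 6.84 CPM (0.40, edgeR adjusted p = 0.0174) and Cry1 from 19.9 ± 3.56 to 24.3 ± 3.59 CPM (0.28, adjusted p = 0.0403). The Nr1d1 rise did not pass with the Hox score as a covariate (0.311, edgeR adjusted p = 0.0836), with upper-quartile scaling (0.282, adjusted p = 0.0921), or without any 1 of 3 G93A untreated mice, replicates 9 and 10 of 155 days (0.353 and 0.285) and replicate 9 of 90 days (0.348). Cry1 did not pass with DESeq2 (0.255, adjusted p = 0.0573), nor in 14 of the fits that left out 1 mouse, in which its change was 0.172 to 0.288.

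In G93A OKN-007 mice 6 of 10 passed, against 32.9% of all genes (19.8% higher and 13.1% lower). Nr1d1 measured 34.6, 29.9, 30.2 and 27.6 CPM at 90 days and 58.3, 44.0, 46.4 and 47.4 CPM at 155 days. It rose by 0.68 ± 0.13 (SE; 1.61-fold, edgeR adjusted p = 0.000111), and with the Hox score by 0.718. Per1 rose from 26.6 ± 7.79 to 46.7 ± 12.4 CPM (0.81, edgeR adjusted p = 0.0263). Without G93A OKN-007 replicate 14 or 15 of 155 days, or replicate 15 or 16 of 90 days, the Per1 change was 0.669 to 0.755 and did not pass (edgeR adjusted p between 0.0709 and 0.101).

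In the same OKN-007 mice Per3 fell by 0.51 (edgeR adjusted p = 0.000361), Ciart by 0.47 (adjusted p = 0.00151), Nr1d2 by 0.31 (adjusted p = 0.012) and Tef by 0.19 (adjusted p = 0.0419). Tef did not pass without G93A OKN-007 replicate 13 or 16 of 155 days or replicate 13, 15 or 16 of 90 days, where its change was -0.199 to -0.165 (edgeR adjusted p between 0.0565 and 0.118). The Rev-erb genes moved in opposite directions between the times in both G93A groups. The GC tilt of the libraries (mean log2 CPM of the most GC-rich genes minus that of the least GC-rich) was also higher at 155 days in these groups, at 0.553 to 0.613 against 0.467 to 0.495 under OKN-007 and at a median of 0.669 against 0.529 untreated. Within groups Nr1d1 and Nr1d2 deviated with the GC tilt at r = 0.531 and -0.52. In untreated mice the GC tilt also differed between the genotypes. At 90 days it was 0.525 to 0.554 in G93A mice against 0.606 to 0.68 in WT mice. At 155 days the ranges overlapped, at 0.532 to 0.702 in G93A mice and 0.442 to 0.724 in WT mice. The part of the GC tilt in the changes between the times and in the genotype differences was not tested. The labels name no batch of collection or library preparation, so a batch that went with the time label cannot be told apart from it.

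Whether the genotype difference itself changed between 90 and 155 days was tested in untreated mice. Nr1d2 (-0.52 ± 0.13 SE, edgeR adjusted p = 0.00529) and Per3 (-0.44 ± 0.15 SE, adjusted p = 0.034) passed, 2 of 10 in the lower direction and 0 in the higher, against 21.2% of all genes (12.9% higher and 8.34% lower). For Nr1d2 the difference was 0.055 at 90 days and -0.45 at 155 days, and for Per3 0.088 and -0.34. The order of the GC tilt medians in untreated mice also turned between the times. They were 0.529 in G93A and 0.629 in WT mice at 90 days, and 0.669 and 0.549 at 155 days. Within groups Nr1d2 deviated with the GC tilt at r = -0.52 and Per3 at r = -0.127, and the part of the tilt here was not tested. Per3 did not pass with the Hox score (-0.39, edgeR adjusted p = 0.0885) or with no filter on low counts (-0.455, adjusted p = 0.0551). Nor did it without replicate 9 or 11 of G93A untreated 90 days, replicate 10 or 11 of G93A untreated 155 days, replicate 2, 3 or 4 of WT untreated 90 days or replicate 3 of WT untreated 155 days, where it was -0.446 to -0.307 (edgeR adjusted p between 0.0505 and 0.119). Per1 (0.71, edgeR adjusted p = 0.213) and Tef (-0.26, adjusted p = 0.0653) did not pass. Tef passed with DESeq2 (-0.273, adjusted p = 0.0246), and by edgeR without WT untreated replicate 2 or WT OKN-007 replicate 8 of 90 days, or WT untreated replicate 1 or G93A untreated replicate 11 of 155 days (-0.311 to -0.258, adjusted p between 0.0248 and 0.049). Of the wider list, 6 passed in the higher direction, with Timeless (0.84, edgeR adjusted p = 0.00114) and Nfil3 (0.81, adjusted p = 0.00243) among them, and 2 in the lower.

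The spread between mice of a group differed widely among the clock genes, and Per1 was the most variable. edgeR's biological coefficient of variation (BCV), the spread between mice of a group with counting noise removed, was 0.275 for Per1, 2.55 times the 0.108 fitted for genes of its abundance, and 79.5% of genes had a smaller SD of log2 CPM within groups. Dbp followed with a BCV of 0.165 (1.62 times its trend), then Nr1d1 (1.19 times) and Per2 (1.09 times). The median gene stood at 0.853 times its trend. Arntl (0.936), Per3 (0.926), Nr1d2 (0.902) and Cry1 (0.88) were near that value.

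Tef, with a BCV of 0.0742, stood at 0.694 of its trend, and 6.59% of genes had a smaller SD within groups. Ciart had the lowest ratio of the 10, 0.642. Over the 32 mice Per1 spanned 3.7-fold (18.3 to 67.9 CPM), Nr1d1 2.31-fold, Dbp 2.2-fold and Per2 2.11-fold, and Tef 1.47-fold (131 to 192 CPM). Dbp had its largest group SD, 20.3 CPM, in WT untreated mice of 155 days, which measured 41.7, 87.6, 49.2 and 54.0 CPM, and replicate 2 of that group was also the highest of all 32 mice in Nr1d1 (63.9 CPM) and in Tef (192 CPM).

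**Figure D3:**
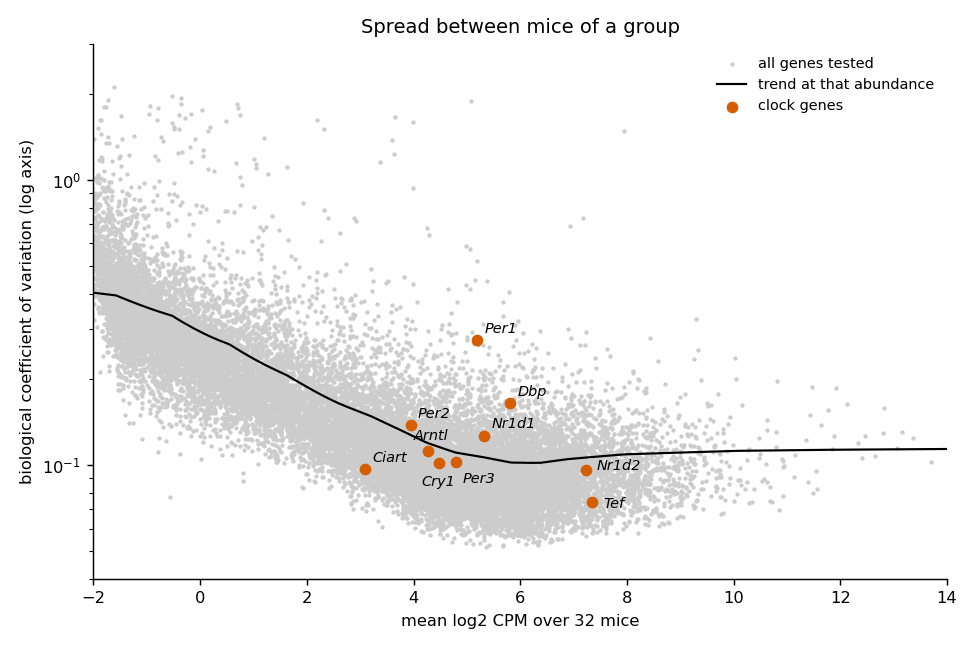
Spread between mice of a group (biological coefficient of variation from edgeR, log axis) against mean log2 CPM over the 32 mice, for all genes tested (grey), the trend at each abundance (line) and the 10 clock genes (orange). Per1 at 0.275 and Dbp at 0.165 lie above the trend, and Tef and Ciart lie below it.

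The clock genes were also compared mouse by mouse within groups. For each gene the deviation of every mouse from its group mean was taken on the log2 CPM scale, which removes genotype, treatment and time, and deviations were correlated over the 32 mice with permutations within groups. Over all 32 mice r of Arntl was negative with 8 of the 9 other clock genes. The relation was strongest with Dbp (r = -0.587, permutation p = 0.00029, adjusted p over the 9 pairs 0.00261; rho = -0.628, permutation adjusted p = 0.00459). Ciart (r = -0.567, permutation adjusted p = 0.0236; rho = -0.519, adjusted p = 0.0382) and Tef (r = -0.509, permutation adjusted p = 0.044; rho = -0.477, adjusted p = 0.0399) passed too.

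Arntl with Per3 (r = -0.382), Per2 (-0.354), Nr1d2 (-0.318), Per1 (-0.22) and Nr1d1 (-0.164) did not pass, nor did Arntl with Cry1 (0.068), which was the one positive value. The mice farthest from the median of Arntl were 2 of 90 days. G93A untreated replicate 12 of 90 days (Arntl 22.8 CPM, Dbp 45.5 CPM) and WT OKN-007 replicate 8 of 90 days (Arntl 23.3 CPM, Dbp 50.4 CPM) were each the highest of their group in Arntl and the lowest in Dbp. Without both, r was -0.47 for Dbp (permutation adjusted p = 0.0528), -0.484 for Ciart (adjusted p = 0.129) and -0.302 for Tef (adjusted p = 0.54), so no pair passed, and the calls of all 3 pairs depended on those mice. Leaving out single mice, Ciart did not pass without WT untreated replicate 2 (-0.511) or WT OKN-007 replicate 8 (-0.425) of 90 days or G93A untreated replicate 9 of 155 days (-0.503), and Tef not in 15 of 32 cases (-0.513 to -0.344).

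Within the 16 mice of 90 days r was -0.837 for Dbp (permutation adjusted p = 0.0277), -0.76 for Tef (adjusted p = 0.0281) and -0.655 for Ciart (adjusted p = 0.0372). Within the 16 of 155 days it was -0.562 for Dbp (permutation adjusted p = 0.293), -0.122 for Tef and -0.395 for Ciart, and 0 of 9 pairs passed, with Per1 (0.158), Per2 (0.0371) and Cry1 (0.225) on the positive side. Libraries differ in how they favour long or GC-rich transcripts, and Dbp deviated with the length tilt of its library at r = -0.556. With length and GC tilts taken out of both genes, r was -0.499 for Dbp, -0.593 for Ciart and -0.547 for Tef.

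Among all 45 pairs of the 10 genes, 29 correlations were positive and 16 negative. The positive values above 0.5 were Dbp with Nr1d1 (0.574) and Per2 with Nr1d2 (0.526), and the values below -0.5 were the 3 of Arntl named above. Leaving out Arntl and Cry1, which were set aside after their values were seen, 24 of the remaining 28 pairs were positive, with a median r of 0.284. Nr1d1 and Nr1d2 stood at -0.35 to each other, and the part of the GC tilt in this was not tested. The 45 values share their 10 genes and 32 libraries and are given as descriptions.

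**Figure D4:**
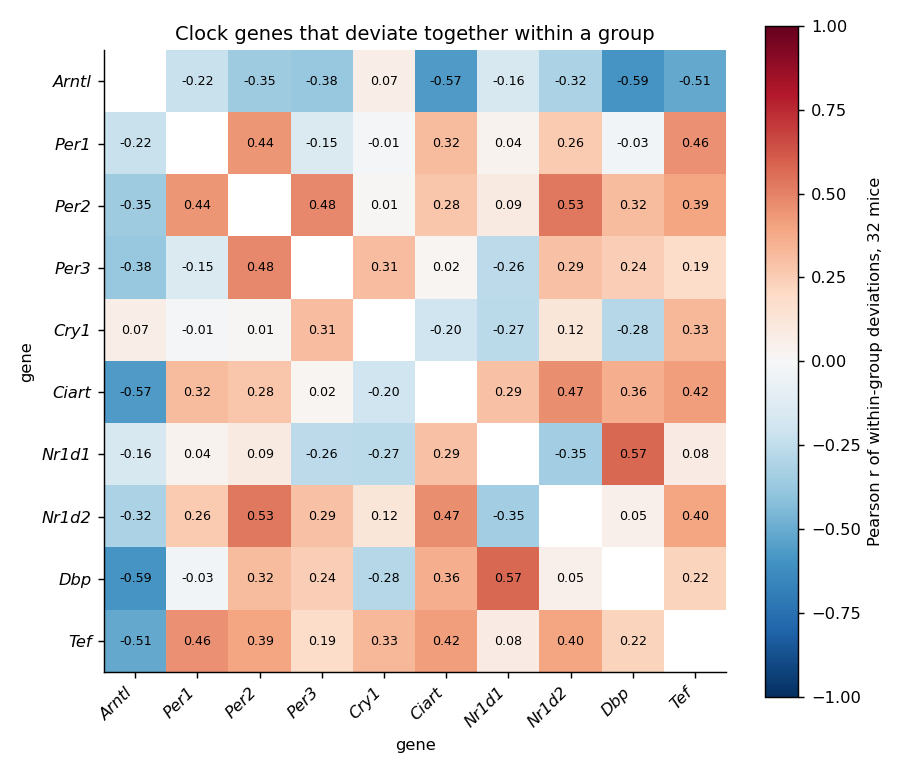
Pearson r between the within-group deviations of each pair of clock genes over 32 mice, from -1 (blue) to 1 (red). The row of Arntl is blue except for Cry1, with Dbp, Ciart and Tef below -0.5, and Dbp with Nr1d1 and Per2 with Nr1d2 are the reddest cells.

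The genes whose deviations were most like those of the clock genes differed from member to member. Dbp was most like Gm38042 (r = 0.834), Mif (0.796), Tagln3 (0.79), Haghl (0.779) and Ppp1r14a (0.772), and least like Slc25a51 (-0.79), Hnrnph2 (-0.772) and Cdh2 (-0.757). Arntl was most like Trim8 (0.753), Vmn2r57 (0.719), Zfp462 (0.703), Pou3f3 (0.699) and Mpp2 (0.671). None of these is among the 22 genes of the wider clock list, and the coefficients are descriptions over 32 mice chosen as the extremes of all genes tested. Gm38042 had a low level (mean log2 CPM -1.53) and overlaps Zfhx3 on the same strand. Exons of Vmn2r57 share 2141 bases with Gm20449 on the same strand.

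Per1 was most like Sgk1 (r = 0.965), Gm19439 (0.965), Nfkbia (0.964), Arrdc2 (0.956) and Plekhf1 (0.953). Sgk1, a kinase, and Nfkbia, the inhibitor of NF-kappa B, are textbook glucocorticoid-responsive genes. Sgk1 ran from 21.6 to 332 CPM over the 32 mice. In WT untreated mice of 155 days it measured 67.1, 34.7, 40.4 and 234 CPM, so replicate 4, the mouse highest in Per1, was also highest in Sgk1. In G93A untreated mice of 155 days it measured 190, 52.7, 332 and 141 CPM, and replicate 11 was highest in both genes, replicate 10 lowest in both.

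A list of 10 glucocorticoid-responsive genes (Fkbp5, Sgk1, Tsc22d3, Zbtb16, Pdk4, Cdkn1a, Errfi1, Sult1a1, Nfkbia and Dusp1) was then set beside all 10 clock genes, a comparison chosen after the likeness of Per1 to Sgk1 and Nfkbia had been seen. Its values are therefore descriptions, with no test. The mean of the list deviated with Per1 at r = 0.936 and rho = 0.974 over the 32 mice, and without Sgk1 and Nfkbia the mean of the other 8 genes did so at r = 0.871 and rho = 0.909. With all 10 genes r was 0.955 within the mice of 90 days, 0.917 within those of 155 days, and 0.952 without the 2 mice farthest in the list's mean. Singly, 10 of 10 list genes were positive with Per1, 9 of them above 0.5, with a median r of 0.845, beside a median of 0.0147 over all genes tested.

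Among the other clock genes, Tef deviated with the list's mean at r = 0.541, with rho = 0.42 and r = 0.343 without the 2 farthest mice. Values for the remaining 8 were lower over the 32 mice, among them Per2 (0.339), Ciart (0.346), Arntl (-0.171) and Dbp (-0.15). Without the 2 farthest mice, however, Per2 stood at 0.567, above Tef. Within the 16 mice of 90 days Ciart (0.846) and Nr1d1 (0.842) also had high values, while within 155 days they were -0.311 and -0.294. Of the wider clock list, Usp2 was most like Per1 (0.796) and also like Tef (0.624).

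The list's mean log2 CPM overlapped between all groups of 155 days. It was 4.83 ± 0.607 in WT untreated, 5.07 ± 0.541 in WT OKN-007, 5.39 ± 0.819 in G93A untreated and 5.15 ± 0.418 in G93A OKN-007 mice (SD, n = 4). Of its 10 genes 3 were higher and 0 lower in untreated G93A mice at 155 days by edgeR (all genes: 21.3% and 18.2%). The list's median log2 fold change was 0.71. Under OKN-007 1 was higher and 1 lower (all genes: 23.3% and 18.2%), with a median of -0.0016. The genes nearest to that median in untreated mice were Fkbp5 (0.586) and Nfkbia (0.84), and neither passed (edgeR adjusted p = 0.278 and 0.0619). The part of the list's deviations in the Per1 difference between genotypes was not tested.

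Lists of genes induced by neuronal activity (10 genes, of which Dusp1 is shared with the list above) and by temperature (7 genes) were read in the same way. Of the activity-induced genes 5 were higher and 1 lower in untreated G93A mice at 155 days and 4 and 2 under OKN-007 (all genes: 21.3% higher and 18.2% lower untreated, 23.3% and 18.2% under OKN-007), and of the temperature-responsive genes 2 were higher and 1 lower under either treatment. Nearest to the median of each list in untreated mice were the activity-induced Dusp1 (0.123, edgeR adjusted p = 0.573) and Ier2 (0.462, adjusted p = 0.0426) and the cold-inducible Cirbp (0.0448, adjusted p = 0.872). Within groups the activity-induced genes had a median r of -0.0563 with Per1, with Arc at -0.88, and the temperature-responsive genes a median of 0.367. Of the temperature-responsive genes, Cirbp (-0.266) and Rbm3 (-0.021) were negative with Per1, and the other 5 were positive, between 0.309 and 0.586. This was not particular to Per1: with Nr1d2 the temperature-responsive genes had a median r of 0.403. Cirbp (-0.279) and Rbm3 (-0.00578) were negative with Nr1d2 and the other 5 positive, with Hsph1 highest (0.648). The part of this list in the Nr1d2 difference between genotypes was not tested. Per1 deviated with the mean of 5 endothelial markers at r = -0.65, and with total counts at 0.329.

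**Figure D5:**
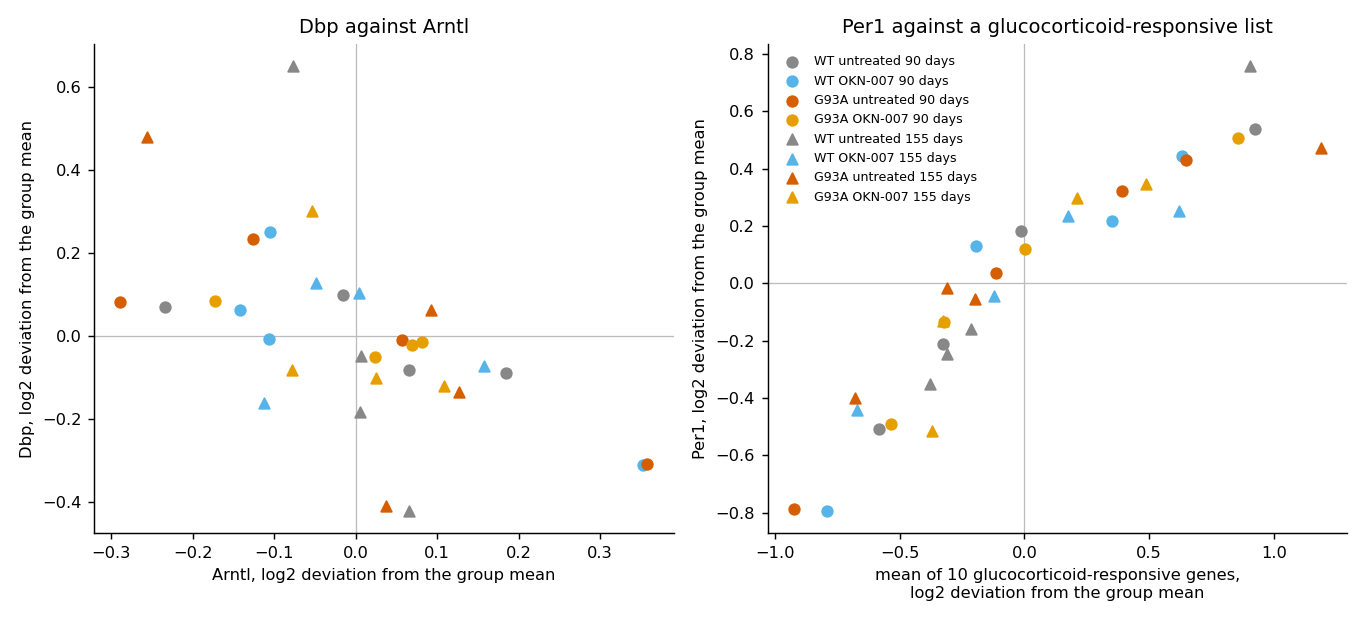
Deviation of each of the 32 mice from its group mean on the log2 CPM scale, for Dbp against Arntl (left) and for Per1 against the mean of 10 glucocorticoid-responsive genes (right), with circles for 90 days and triangles for 155 days. On the left r is -0.587 and the 2 mice highest in Arntl lie at the lower right, and on the right r is 0.936 with mice of all 8 groups along the same slope.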

How the data were processed

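The authors sequenced spinal cord RNA of 32 mice, with TRIzol extraction of 25 mg of tissue, stranded mRNA libraries (TruSeq) and a NextSeq 500. The authors deposited whole-number counts of reads per gene. The study's methods name Trimmomatic, STAR on GRCm38, HTSeq and GENCODE M10, while the submitters' processing notes name FastQC, STAR, featureCounts and edgeR with the builds hg38, GRCm39 and mm39, so the counter, build and strand setting behind the counts are uncertain. Reads in exons that overlap on opposite strands could be assigned differently under each. Gene symbols and positions came from GENCODE M21 (GRCm38) by identifier, for 41203 of 42524 genes (96.9%), and promoter windows from RefSeq (GRCm38.p6).

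Counts were scaled by TMM and tested with edgeR 4.0.16 (quasi-likelihood test, R 4.3.3) after its filter on low counts, in a fit of the 16 mice of each time (18899 and 18675 genes) and, for changes between the times, of all 32 mice (19829 genes). Adjusted p-values are Benjamini-Hochberg values over all genes of a fit, with a threshold of 0.05, and intervals are 95% intervals. Group values are mean ± SD in CPM. DESeq2 1.42.0, edgeR's likelihood ratio test, other scaling factors, filters and sets of samples, a Hox score, 1 surrogate variable (sva 3.50.0), a log2 fold change of at least 0.5, and each mouse left out in turn were the alternatives. Within-group correlations used log2 CPM (prior count 2) and 100000 two-sided permutations within groups. In simulated counts for untreated mice at 155 days (18378 genes), 73% of 2-fold and 97% of 4-fold changes were recovered and 4.49% of calls were false.

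Groups came from the labels, which number the samples without naming the animal of each, so p-values measure the spread between these samples, each taken as 1 mouse. No pair of libraries of a group agreed within counting noise (chi-square per gene 3.57 to 58.2). Same-numbered samples of the 2 times did not deviate together (r between -0.215 and 0.134), so the numbers were not taken as pairs. The members and gene lists were chosen with earlier results of these data known. The genes named are all 10 clock genes, those of the wider clock list that passed within a time (some are not reported here), the gene nearest to the median of the glucocorticoid, activity and temperature lists, and the genes most like Dbp, Per1 and Arntl within groups. Others were chosen after their values were seen.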

Additional observations from a re-analysis of the deposited data

Results flagged for a closer look

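Of 80 sets of 4 mice (10 clock genes in 8 groups), 8 held a mouse whose gap to the nearest of the others was too large a part of the range of its group (Dixon's critical value at 95% for 4 samples), where chance gives about 4. In WT untreated mice of 155 days, replicate 4 was apart in Per1 at 46.8 CPM (nearest 24.8 CPM, gap 0.873 of the range) and in Ciart at 7.74 CPM (nearest 9.61 CPM, 0.882). WT OKN-007 replicate 8 of 90 days was apart in Arntl at 23.3 CPM (nearest 16.9 CPM, 0.941) and in Tef at 149 CPM (nearest 177 CPM, 0.848). WT untreated replicate 2 of 90 days had 177 CPM of Tef (nearest 156 CPM, 0.84). G93A OKN-007 replicate 13 of 155 days had 65.1 CPM of Dbp (nearest 50 CPM, 0.915). Among G93A untreated mice of 155 days, replicate 11 had 29.6 CPM of Cry1 (nearest 23.1 CPM, 0.844) and replicate 9 had 9.57 CPM of Ciart (nearest 7.87 CPM, 0.863).

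The difference between untreated G93A and WT mice itself changed from 90 to 155 days for 2 of 10 clock genes, against 21.2% of all genes. The change of that log2 difference was -0.521 ± 0.134 for Nr1d2 (SE, edgeR adjusted p = 0.00529) and -0.441 ± 0.15 for Per3 (SE, edgeR adjusted p = 0.034). Per3 did not pass with the Hox score (-0.387, edgeR adjusted p = 0.0885), with no filter on low counts (-0.455, adjusted p = 0.0551) or in 8 of 32 fits that left out 1 mouse.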

How the results depend on the processing

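No called value changed sign under any alternative, and 189 of 4524 values past no threshold did. Requiring a log2 fold change of at least 0.5 as well left 1 clock gene (Per1) between genotypes in untreated mice at 155 days and 1 (Per1) averaged over the treatments, 0 under OKN-007, 3 between the times in G93A OKN-007 mice (Per1, Per3 and Nr1d1), 0 in G93A untreated mice, 0 in WT OKN-007 mice, and 1 (Nr1d2) in the difference of the genotype effect between the times. That difference was also down to 1 (Nr1d2) with the Hox score or with no filter on low counts. The single call between the times in WT OKN-007 mice (Cry1) was 0 with 1 surrogate variable, at least 10 counts in every library, the Hox score, DESeq2, no filter, RLE factors or upper-quartile factors. Arntl had 0 pairs past the threshold in the mice of 155 days alone and 0 without the 2 libraries farthest in Arntl. The cause was not tested.

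Leaving out 1 mouse at a time, the count of clock genes past the threshold at 155 days was 3 to 4 between untreated genotypes (4 with all mice), 4 to 5 under OKN-007 (4) and 5 to 6 averaged (5). Between the times it was 0 to 1 in WT untreated (0), 0 to 2 in WT OKN-007 (1), 3 to 4 in G93A untreated (4) and 4 to 6 in G93A OKN-007 mice (6), and 1 to 3 for the difference of the genotype effect (2). Pairs of Arntl past the threshold were 1 to 3 (3). The 0 counts at 90 days, for OKN-007 and for the interactions stayed at 0. With the sample number as a replicate block, counts between the times were 0, 4, 1 and 5 in WT untreated, G93A untreated, WT OKN-007 and G93A OKN-007 mice, with Tef lost in the last (-0.188, edgeR adjusted p = 0.0576), and 2 for the difference. Of 16 same-numbered pairs 2 had r over 0.1 and 2 correlated best with their own number. The fits without the 3 libraries highest in Alb and the correlations without length and GC tilts were chosen after seeing the data. With 4 mice a group, part of the 2-fold changes was missed in the simulated data, in which fewer genes changed than passed in the real comparison.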
